A study of Homo sapiens with 4 samples.

Results

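The genes described here are 10 regulators of the G1 phase of the cell cycle: the cyclins CCND1, CCND2, CCND3 and CCNE1, the kinases CDK2, CDK4 and CDK6, and the kinase inhibitors CDKN1A, CDKN1B and CDKN2C. They were chosen by gene symbol from the 26364 genes of the deposited count table, and all 10 were found and passed the filter on low counts that left 15599 genes for testing. The choice was made with the response to estradiol (E2) known, including that of CCND1, which was picked for not rising with E2, so the changes of the 10 genes with E2 are given as a description, and no test of them is read as a result. The comparison between the 2 sets of cells, which the choice did not use, is tested.

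RNA sequencing was done on Ishikawa cells, a human endometrial adenocarcinoma line, whose ESR1, the gene for estrogen receptor alpha, had the Y537S mutation, which lies in the part that binds ligand. Per the labels, all cells were kept at least 5 days in medium stripped of hormones and then received 0.1% DMSO, the vehicle, or 10 nM E2 for 8 h, and 2 mutant clones were treated. The 4 libraries, 2 per treatment, are named here by the tag in their column names, A4 or B212, since no label links a tag to clone number 1 or 2. Each tag had 1 DMSO and 1 E2 library, and no label says that libraries came from separate cultures, so the p-values measure the spread between these libraries only. No tag had replicate libraries of the same treatment, so SEs, intervals and p-values between the tags hold no spread between such replicates. Libraries without the mutation were not used here, so no value below measures the effect of the mutation itself.

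In the textbook model, D cyclins bind CDK4 or CDK6 and the complexes phosphorylate the retinoblastoma protein RB, which releases E2F transcription factors. Cyclin E with CDK2 completes that step and starts S phase, while INK4 proteins such as the CDKN2C product block CDK4 and CDK6, and the Cip/Kip proteins encoded by CDKN1A and CDKN1B hold back CDK2. Estrogen is known as a mitogen of endometrial epithelium, and CCND1 is a classical estrogen-responsive gene in breast cancer cells.

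The libraries held 71575816 to 85222856 counts. Levels are given as CPM, the usual scaling of counts for sequencing depth, with library sizes adjusted by the trimmed mean of M values. All 7 epithelial markers were present, and their summed CPM was 2298 to 2450 in A4 and 2774 to 3059 in B212. Of 9 leukocyte, endothelial and fibroblast markers, CD3E and PECAM1 were at 0 counts in all libraries. The sum of the 9 was 134.0 and 97.4 CPM in A4 (DMSO and E2) and 49.5 and 40.4 CPM in B212, mostly from COL1A1. The part of these marker differences in the results between the tags was not tested. The E2 treatment was read from PGR, a receptor gene induced by estrogen, which had 3777 and 5914 counts (DMSO and E2) in A4 and 480 and 1145 counts in B212. In an edgeR fit with the tag as a block, PGR rose with E2 by 0.90 (log2) and GREB1, a further estrogen-induced gene, by 0.48, and neither was called without the block. Both rose less in A4 than in B212. The within-tag log2 changes were 0.48 in A4 and 1.47 in B212 for PGR, and 0.11 in A4 and 0.87 in B212 for GREB1.

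Per length of transcript, CCND1 was the most abundant of the 10 genes. CPM per kilobase, using 1 transcript per gene, were 310.0 and 248.8 in A4 (DMSO, E2) and 305.4 and 270.7 in B212 for CCND1. CDK4, which with CDK6 partners the D cyclins, averaged 141.7 on the same scale, CDK2 95.7, CDKN1B 49.97 and CCNE1 25.2. The libraries of these 5 genes did not overlap with those of their neighbours in this order. Below them, CDKN1A averaged 13.9, CDKN2C 11.4, CCND2 8.25 and CCND3 6.76 CPM per kilobase, and the libraries of neighbouring genes overlapped. CDK6 was lowest in every library by this length, at 1.90 to 3.96. The order of the means was the same with the merged length of all exons of a gene, but the mean of CCND3 was then 2.79, close to the 2.66 of CDK6, and CCND3 was the lowest in both B212 libraries (2.17 and 2.16, against 3.75 and 3.18 for CDK6).

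**Figure D1:**
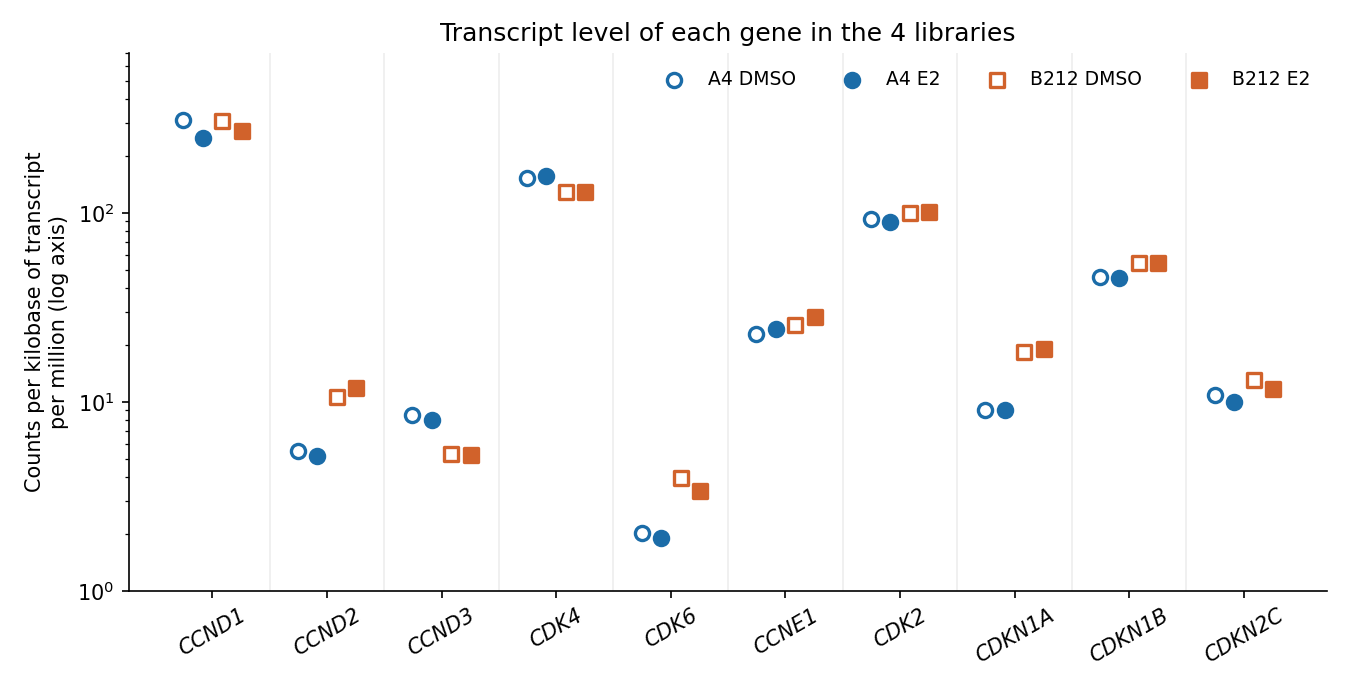
Level of each gene as CPM per kilobase of transcript (log axis) in the 4 libraries, circles for A4 and squares for B212, open for DMSO and filled for E2. CCND1 stands at 248.8 to 310.0 in all libraries, and CCND2, CDK6 and CDKN1A stand higher in both B212 libraries than in both A4 libraries.

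Within the families, 1 member dominated. CCND1 took 94.1% to 95.7% of the summed level per kilobase of the 3 D cyclins in a library. CCND2 took 1.69% and 1.97% in the A4 libraries and 3.29% and 4.11% in the B212 libraries. CCND3 took 2.63% and 3.05% in A4 and 1.64% and 1.82% in B212, so the order of the minor D cyclins was opposite in the tags. That order depended on the length used: with merged exons CCND2 was above CCND3 in all 4 libraries, by 4.97 to 3.52 in the A4 DMSO library. CDK4 was 75.5 and 82.1 times as high as CDK6 per kilobase in A4 and 32.7 and 38.5 times in B212. Of the Cip/Kip pair, CDKN1A made up 16.4% and 16.7% in A4 and 25.2% and 25.97% in B212.

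The tested comparison set the B212 libraries against the A4 libraries, with a term for treatment. CCND2, CDKN1A and CDK6 were about 2-fold higher in B212, CCND3 was lower, and CCND1 was not called. With edgeR's quasi-likelihood test and a Benjamini-Hochberg adjusted p under 0.05 over all genes tested, 8 of the 10 genes were called, 6 higher and 2 lower in B212. Over all genes tested the called share was 51.0%, with 25.2% higher and 25.8% lower, so a call between the tags was common. The median difference of the 10 genes was 0.21 (log2) and that of all genes 0.0042. With library size as the only scaling, 60.0% of all called genes were higher in B212, against 49.4% with the scaling used here, and 7 of the 10 genes were called higher and 2 lower.

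CCND2, a D cyclin known to be regulated apart from CCND1 in many tissues, had 35.6 and 33.4 CPM in A4 (DMSO, E2) and 68.4 and 76.6 CPM in B212. Both B212 libraries were above both A4 libraries. The difference was 1.07 ± 0.080 (log2, SE; edgeR adjusted p-value 9.48e-10), and its size exceeded that of 89.5% of all genes tested. In bulk libraries, more cells with a transcript and more transcript per cell cannot be told apart, here or for the genes that follow. CCND3, the third D cyclin, went the other way, with 20.4 and 19.15 CPM in A4 and 12.6 and 12.5 CPM in B212. Its difference was -0.65 ± 0.091 (log2, SE; edgeR adjusted p-value 5.79e-06). CCND1 itself had 1335 and 1072 CPM in A4 and 1315 and 1166 CPM in B212, and the tags overlapped. The CCND1 difference was 0.050, with a 95% interval of -0.11 to 0.21 and an edgeR adjusted p-value of 0.608.

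Among the kinases, CDK6 differed most. CDK6 had 23.4 and 22.04 CPM in A4 and 46.01 and 39.02 CPM in B212, a difference of 0.90 ± 0.082 (log2, SE; edgeR adjusted p-value 1.71e-08). CDK4, which shares the D cyclin partners of CDK6, was lower in B212 by a log2 difference of -0.25 ± 0.070 (edgeR adjusted p-value 0.00515). Its levels were 316.3 and 323.4 CPM in A4 and 268.8 and 268.3 CPM in B212. The 2 kinases thus differed in opposite directions between the tags, and CDK4 remained the more abundant in all 4 libraries. CDK2, the cyclin E partner, had 213.3 and 205.1 CPM in A4 and 229.5 and 230.9 CPM in B212. It was not called, with a difference of 0.14, a 95% interval of -0.0065 to 0.28 and an edgeR adjusted p-value of 0.104. With library size as the only scaling, CDK2 passed the threshold (edgeR adjusted p-value of 0.0179). CCNE1, the regulatory subunit of CDK2, had 46.6 and 49.7 CPM in A4 and 52.1 and 57.3 CPM in B212. Its difference of 0.18 ± 0.074 reached an edgeR adjusted p-value of 0.0457 and passed the threshold in 5 of the 9 fits run. The adjusted p-value was 0.0607 with DESeq2 size factors in edgeR, 0.113 with no gene filter, 0.175 under DESeq2 and 0.202 with edgeR and no treatment term.

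All 3 inhibitors were higher in B212. CDKN1A had 20.4 and 20.6 CPM in A4 and 41.6 and 43.2 CPM in B212, a difference of 1.05 ± 0.081 (log2, SE; edgeR adjusted p-value 1.36e-09). The gap between the tags was far wider than the gap between treatments within a tag. CDKN1B, the more abundant of the Cip/Kip pair, had 121.7 and 120.2 CPM in A4 and 144.8 and 144.4 CPM in B212, a difference of 0.26 ± 0.068 (edgeR adjusted p-value 0.00372). CDKN2C, an INK4 member, had 31.7 and 29.1 CPM in A4 and 37.8 and 34.1 CPM in B212. Its difference of 0.24 ± 0.079 had an adjusted p-value of 0.0148 in edgeR and 0.0851 in DESeq2.

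CCND2, CCND3, CDK6 and CDKN1A were called in all 9 fits that gave p-values. Without the treatment term, these 4 were the only ones of the 10 called, since the edgeR adjusted p-values of CDK4, CDKN1B and CDKN2C were then 0.0706, 0.0622 and 0.125. The B212 and A4 libraries did not overlap for 9 of the 10 genes, 7 higher and 2 lower in B212, CCND1 being the exception, and for 67.5% of all genes tested (34.7% higher and 32.8% lower).

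**Figure D2:**
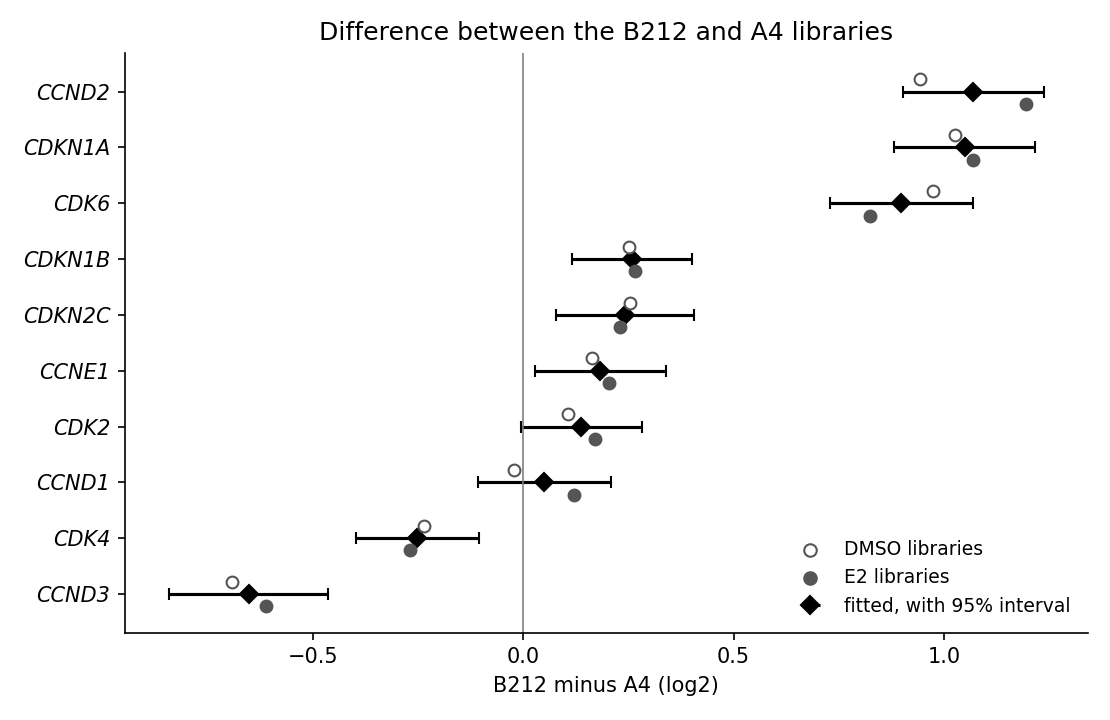
Difference between the B212 and A4 libraries (log2) for each gene, with the fitted value and its 95% interval as a diamond with a bar and the differences within DMSO (open) and within E2 (filled) as circles. CCND2, CDKN1A and CDK6 lie near 1 under both treatments, CCND3 lies at -0.69 and -0.61, and the interval of CCND1 spans 0.

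Sequence before the start site is shown for 3 of the genes with the largest differences, CDKN1A and CDK6 (higher in B212) and CCND3 (lower). For each gene the longest stretch was taken, within 250 bases before a RefSeq start (GRCh38.p14), that overlaps no exon of GENCODE 29, at the start where that stretch holds a GC box. It is written 5′ to 3′ on the gene's strand, with GC boxes (GGGCGG on either strand, overlapping matches included) in capitals. Of the 10 genes, 7 matched the RefSeq promoter table, with 12 starts. CCND1, CCND2 and CDK2 did not match, so the motif counts below do not cover them.
CDKN1A, chr6:36678560-36678657, plus strand: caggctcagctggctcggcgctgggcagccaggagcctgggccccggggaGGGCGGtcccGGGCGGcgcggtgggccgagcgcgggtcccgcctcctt
CDK6, chr7:92836595-92836823, minus strand: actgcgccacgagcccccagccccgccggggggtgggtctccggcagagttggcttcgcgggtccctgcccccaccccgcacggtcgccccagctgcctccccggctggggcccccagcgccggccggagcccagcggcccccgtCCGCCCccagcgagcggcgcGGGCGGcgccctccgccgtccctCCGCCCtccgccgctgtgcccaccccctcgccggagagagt
CCND3, chr6:41941849-41942058, minus strand: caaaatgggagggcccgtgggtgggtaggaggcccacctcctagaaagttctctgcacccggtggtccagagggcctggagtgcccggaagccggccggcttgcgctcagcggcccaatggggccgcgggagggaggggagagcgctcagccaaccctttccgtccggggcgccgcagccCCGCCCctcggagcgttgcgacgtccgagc
A GC box was found in 9 of the 12 full windows of 250 bases, and in 42.6% of all 35116 windows of the table. An E-box (CACGTG) was found in 3 of the 12 windows, 1 of CDK4, which held 3 copies, and 2 of CDKN2C, against 6.34% of all windows. No window held a full estrogen response element (GGTCA and TGACC, 3 bases apart), a cAMP response element (TGACGTCA) or an AP-1 site (TGANTCA) on either strand, and these were in 0.0399%, 1.65% and 6.57% of all windows. The counts describe letters in these windows and were not related to the expression values by a test.

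CCND1, picked for its response, was lower with E2 in both tags, and the within-tag changes of the 10 genes lay between -0.32 and 0.16 (log2). The raw counts of CCND1 were 97769 (DMSO) and 87912 (E2) in A4, and 112246 (DMSO) and 85452 (E2) in B212. After scaling this was a change of -19.7% in A4 and -11.4% in B212, and the treatment means were 1325 ± 14.03 CPM for DMSO and 1119 ± 66.5 for E2 (SD, n = 2). Both E2 libraries were below both DMSO libraries. The counting intervals of 95%, which cover counting error only, ran from -0.33 to -0.30 (log2) in A4 and from -0.19 to -0.16 in B212, and did not overlap.

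Of the other D cyclins, CCND2 had a log2 change of -0.090 in A4 and 0.16 in B212, in opposite directions, and CCND3 one of -0.091 and -0.011. CDK6 had -0.088 in A4 and -0.24 in B212, CDK4 0.032 and -0.0026, and CDK2 -0.056 and 0.0089. CCNE1 was higher with E2 in both tags, by 0.094 and 0.14, with counting intervals above 0. Counting intervals hold no spread between libraries, so one that leaves out 0 is not read as a change. With the tag as a block, the edgeR value of CCNE1 was 0.12 with an SE of 0.074. The inhibitors CDKN1A (0.011 and 0.054) and CDKN1B (-0.018 and -0.0043) had counting intervals that included 0 in both tags, while CDKN2C had -0.12 and -0.15. E2 and DMSO libraries did not overlap for CCND1 alone of the 10 genes, lower with E2, as 11.8% of all genes tested did. Of all genes tested, 36.8% were lower and 33.3% higher with E2 in both tags.

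**Figure D3:**
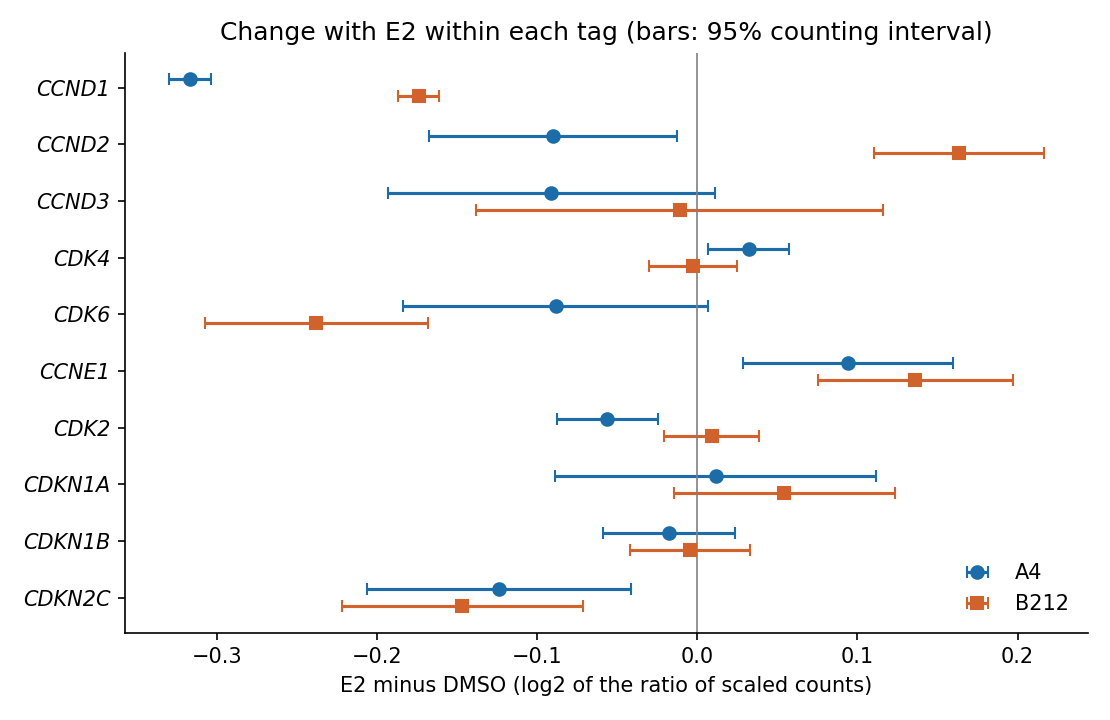
Log2 change from DMSO to E2 within A4 (circles) and B212 (squares), with bars for the 95% counting interval. CCND1 lies lowest in A4 at -0.32, CCNE1 is above 0 and CDKN2C below 0 in both tags, and CCND2 lies on either side of 0.

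Over all genes, the unblocked edgeR fit called 0.00% for E2, with 150 genes at an unadjusted p under 0.05 (DESeq2 called 1 gene). With the tag as a block it called 9.56% (6.13% higher and 3.44% lower). Of the 10 genes, 0 were called with no block (0 at an unadjusted p under 0.05), and 1, CCND1, was called with the block. With the block, CCND1 stayed called under DESeq2 and with library size only. It was not called under limma-voom, with DESeq2 size factors in edgeR or after removal of a length and GC trend. The 10 genes were picked with this contrast in view, so nothing is read from these counts. With library sizes alone, the share of higher genes among those called with the block was 54.0%, against 64.1%.

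The 3 genes whose pattern over the 4 libraries lay closest to that of CCND1, by Euclidean distance of centred log2 CPM among the 11928 candidates that reached 100 counts in each library, were MLLT6 (0.0155), PACSIN3 (0.0156) and ADCK4 (0.0160). Among the 10 genes, CDKN2C was nearest to CCND1 at 0.24, and CCND2 and CDKN1A were each other's nearest at 0.11. Over 4 libraries, with 2 of each tag, the points share tag and treatment.

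The other genes of the pathway were read from lists written with earlier results of these data known. Of 28 other G1 regulators, all tested, 13 were called between the tags, 4 higher and 9 lower in B212, with a median of -0.11 (log2), near the 51.0% called among all genes. The 4 called higher were the transcription factor E2F1 (0.51), the RB relative RBL2 (0.47), the Cip/Kip inhibitor CDKN1C (0.80) and the second E-type cyclin CCNE2 (0.38), with edgeR adjusted p-values of 2.07e-05 to 5.03e-04. Among the 9 lower were E2F6 (-0.58) and E2F8 (-0.67), both repressors of E2F target genes, the S phase cyclin CCNA2 (-0.43) and CCNH (-0.42), a subunit of the kinase that activates CDKs, with edgeR adjusted p-values of 5.55e-06 to 1.19e-04. Without the treatment term, 7 of the 28 were called, beside 28.6% of all genes, and CCNE2 was not among them. The CCNE2 difference was 0.20 without either DMSO library and 0.23 after removal of a length and GC trend. The INK4 inhibitors CDKN2A (-0.21) and CDKN2B (-0.32) were also among the 9 lower, with edgeR adjusted p-values of 0.0248 and 0.0148. A further INK4 gene, CDKN2D, was not called (0.21, edgeR adjusted p-value of 0.403). RB1, which encodes the main target of CDK4 and CDK6, was not called (0.14, edgeR adjusted p-value of 0.183).

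Of 25 E2F-driven S phase genes, 9 were called between the tags by edgeR, 6 higher and 3 lower in B212, with a median of 0.073 (log2). The replication and chromatin genes UHRF1 (0.52), CHAF1B (0.34), MCM6 (0.32) and CDT1 (0.33) were higher, and RRM2 (-0.20), CDC45 (-0.21) and TYMS (-0.20) were lower. The UHRF1 difference was 0.30 in DMSO and 0.75 in E2, and leaving out the E2 library of A4 or of B212 gave 0.29 or 0.30. Without the treatment term, 3 of the 25 were called, CDT1 not among them. The calls of RRM2, CDC45 and TYMS ended with library size scaling, with edgeR adjusted p-values of 0.116, 0.142 and 0.176. The share called, 9 of 25, was below the 51.0% of all genes.

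CDKN1A is a classical target of p53, and 11 of 15 other p53 targets were called between the tags by edgeR, 8 higher and 3 lower in B212, with a median of 0.19 (log2), beside 51.0% of all genes called, 25.2% higher and 25.8% lower. The antiproliferative genes TP53INP1 (1.40) and BTG2 (0.83), the mitochondrial reductase FDXR (0.59) and the death receptor FAS (0.36) were higher, with edgeR adjusted p-values of 4.60e-12 to 0.00104. DDB2 (-0.60) and AEN (-0.52), both of the DNA damage response, and the apoptosis effector BAX (-0.24) were lower. MDM2, the p53 ubiquitin ligase and a common readout of p53 activity, differed by 0.021 and was not called (edgeR adjusted p-value of 0.828). The FAS difference was 0.19 without either DMSO library, and that of AEN was -0.34 without the B212 DMSO library. The count of 11 became 7 under DESeq2 and 6 with edgeR and no treatment term, where the share of all genes called was 35.5% and 28.6%, and BAX was not called in either. The list's median was 0.054 after removal of a length and GC trend.

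With E2, edgeR with no block called 0 genes of the 3 lists, and MNAT1 alone had an unadjusted p under 0.05. DESeq2 and limma-voom with no block also called 0. On simulated counts, edgeR with no block recovered 0 of 200 changed genes, so its 0 calls here do not show that the genes were unchanged. Once the tag was a block, edgeR called 6 of the 28 other G1 regulators, all higher with E2, beside 6.13% of all genes. MNAT1 (0.38 ± 0.079, log2, SE) and CDK7 (0.25), both of the kinase that activates CDKs, CKS1B (0.42), a cofactor of CDKs, CDK1 (0.34), CCNE2 (0.30) and E2F6 (0.28) made up the 6, with edgeR adjusted p-values of 0.00644 to 0.0440. The third subunit of that kinase, CCNH, had 0.22 and an edgeR adjusted p-value of 0.0764. With the block, 1 of the 25 S phase genes was called, the replication clamp PCNA (0.25, edgeR adjusted p-value of 0.0425), and 0 of the 15 p53 targets (4 at an unadjusted p under 0.05, and 0 by DESeq2 or limma-voom). The calls with the block were 3 G1 regulators under DESeq2 and 5 under limma-voom, and E2F6 alone of the 6 after removal of a length and GC trend. That removal lowered the values of CKS1B and MNAT1 to 0.22 each, CDK1 to 0.13, CCNE2 to 0.18 and PCNA to 0.072. PCNA was not called with DESeq2, limma-voom, DESeq2 size factors in edgeR or the trend removed (adjusted p-values of 0.0985, 0.0563, 0.0868 and 0.513). With the block and library size only, PCNA (0.23) stayed called, and MCM2 (-0.23) and MCM5 (-0.23) were called lower with E2. POLE (0.23) was called higher with the trend removed. In the same blocked edgeR fit, the fibroblast marker COL1A1 (-0.39) and the endothelial marker VWF (-0.49) fell with E2. So did KRT18 (-0.27), PAX8 (-0.25) and ESR1 (-0.25) of the epithelial markers, the last being the receptor gene itself. The edgeR adjusted p-values of these were 0.00394 to 0.0441. The epithelial markers EPCAM (0.068), KRT8 (-0.13), KRT19 (-0.054) and CDH1 (-0.11) were not called. Neither were COL1A2 (-0.44), PTPRC (0.23) and CD68 (0.065), and the remaining markers did not pass the count filter. The part of these changes in the counts above was not tested. The median changes with the block were -0.026 for the G1 regulators, -0.052 for the S phase genes and -0.086 for the p53 targets, and -0.0081 for all genes.

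**Figure D4:**
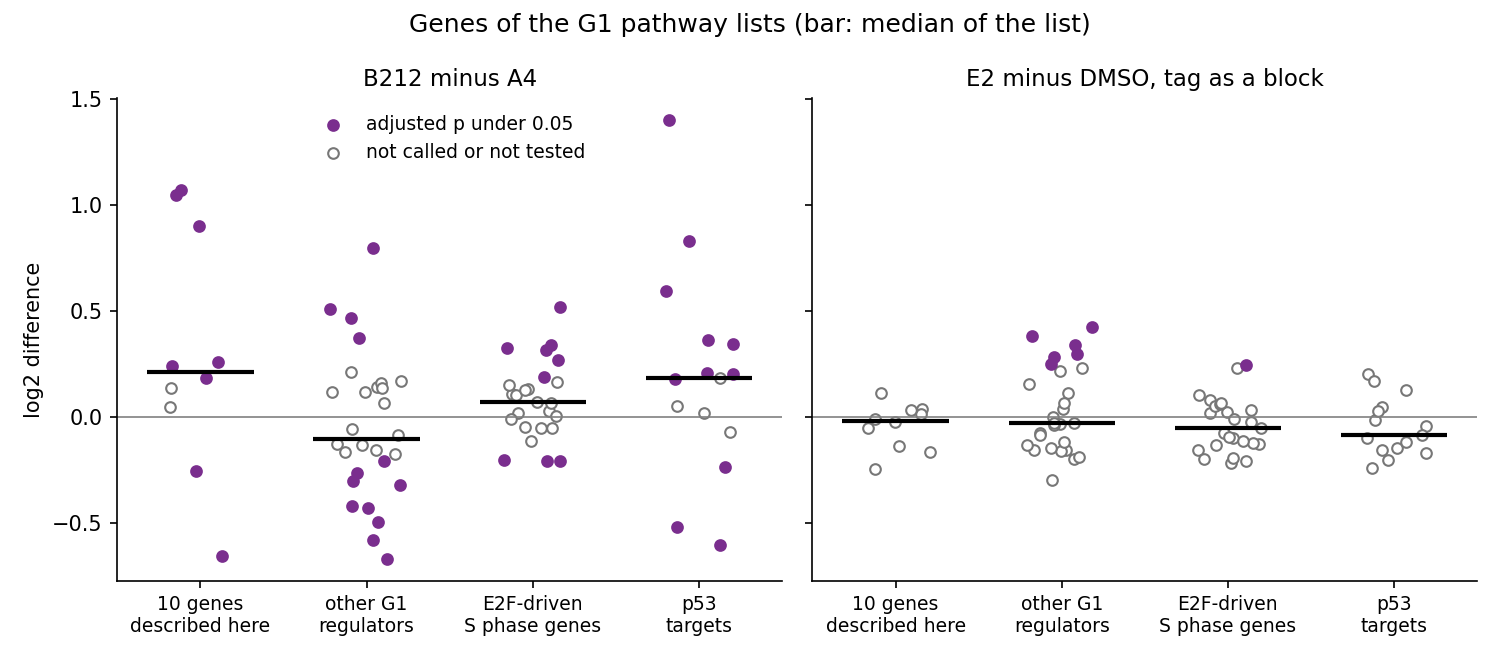
Log2 differences of each gene of the 4 lists, between the tags (left) and with E2 with the tag as a block (right), filled where the adjusted p is under 0.05 and with a bar at each list's median. The E2 changes of the 10 genes are drawn without a test, and TP53INP1 is the point at 1.40 on the left.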

How the data were processed

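The authors deposited raw counts per gene symbol. HISAT2, SAMtools, featureCounts and DESeq2 and the build hg19 are named in the submitters' processing notes, with no role or version. The annotation and strand setting are not given in the sources used here, so overlapping and antisense genes are uncertain. Per the labels' protocols, poly(A)-selected stranded libraries were made from 500 ng of RNA. The table's other 4 columns of per-sample values fit none of the labelled samples and were left out.

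Genes were kept by filterByExpr of edgeR 4.0.16 (minimum count 10), scaled by TMM and tested with its quasi-likelihood test, adjusted by Benjamini-Hochberg over 15599 genes at 0.05. E2 was tested without a block. A fit that added the tag as a block stands beside it. SEs were derived from the fold change and F statistic. Within-tag log2 values had a prior count of 2. The members and lists were chosen with earlier results of these data known. From each list up to 4 genes per direction with the smallest p past the threshold were named. CDK7 and E2F6, outside that rule for E2, and RB1, MDM2, CCNH, CDKN2A, CDKN2B and CDKN2D were named after their values were seen. Libraries of a tag deviated together from their group means (Pearson r = 0.871 across genes), and the pairing rests on the column names. No libraries were duplicates: chi-square over degrees of freedom was 25.9 to 207.6 for their pairs.

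Lengths and GC content came from the longest GENCODE 29 transcript per symbol, coding preferred, found for 93.5% of tested genes. Alternatives used DESeq2 1.42.0, limma 3.58.1 and mgcv 1.9.3, in R 4.3.3, and figures matplotlib 3.10.9. On simulated counts for 15599 genes, 200 of them changed by 1 (log2), with tag differences as measured, the E2 fit recovered 0 genes with no block and 197 with it, with 7 false calls. The tag comparison was simulated apart, with 200 genes changed between the tags and no treatment change. It recovered 199, with 7 false calls, in a setting with far fewer changed genes than were called in the data.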

Additional observations from a re-analysis of the deposited data

Results flagged for a closer look

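In 3 of the 10 genes the E2 change had opposite signs in the tags, a contrast left untested because a tag holds a single library of each treatment. CCND2 had a log2 change of -0.090 in A4 and 0.16 in B212. The 95% counting intervals, -0.17 to -0.013 and 0.11 to 0.22, lay on either side of 0, but they cover counting error only. CDK2 had -0.056 in A4 and 0.0089 in B212, and CDK4 had 0.032 in A4 and -0.0026 in B212, with B212 intervals that included 0. The median E2 change of the other G1 regulators was -0.023 in A4 and 0.0061 in B212, with 10 of 28 genes higher in both tags, 11 lower in both and 7 opposite. CCND1 differed between B212 and A4 by -0.022 in DMSO and 0.12 in E2 (log2), a difference that was likewise not tested.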

How the results depend on the processing

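With no block, the 0 genes called for E2 became 1 under DESeq2 and stayed 0 under the other scalings, filters and limma-voom. With the tag as a replicate block there were 1492 (956 higher), and with the block 717 under DESeq2 size factors in edgeR (455 higher), 1686 under library size only (911), 562 under DESeq2 (376), 1138 under limma-voom (757) and 721 with a length and GC trend removed (461). The fits combining the block with another tool or scaling were chosen after seeing the data, except the trend. Between the tags, 7950 genes became 4456 with no treatment term, and 5538 to 8907 under the other fits.

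Leaving out libraries moved the median E2 change of the other G1 regulators from -0.031 to between -0.0396 and 0.05002, of the S phase genes from -0.051 to between -0.11 and -0.047, and of the p53 targets from -0.090 to between -0.11 and 0.077. The median tag differences became -0.038 (other G1 regulators), 0.14 (S phase genes) and 0.25 (p53 targets) with library size only, and 0.054 for the p53 targets with the trend removed. Leaving out libraries gave -0.096 to -0.085, 0.060 to 0.070 and 0.14 to 0.21. The cause of these shifts was not tested. With no block, leaving out 1 library unbalances the tags, and it changed the sign of the E2 value of 7 of the 10 genes (CDKN1A from -0.59 to 0.63). CCND1 ranged from -0.31 to -0.19, CCNE1 from 0.011 to 0.21 and CDKN2C from -0.26 to -0.019. The tag differences of 9 of the 10 genes kept their sign under every setting, and CCND1 ranged from -0.023 to 0.12. The fits without 1 library between the tags leave no residual degrees of freedom and give values only.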
